A study of Homo sapiens with 8 samples.

Results

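The chromosome 19 p12 cluster of zinc finger genes was examined for H3K9me3 (trimethylated lysine 9 of histone H3, found on silent chromatin) and H3K4me3 (trimethylated lysine 4, found at active promoters). Members were the protein-coding genes of GENCODE release 44 whose symbol starts with ZNF and whose transcription start site (TSS) lies between 15 and 30 Mb of chromosome 19 in hg38. This rule found 37 genes among 19970 protein-coding genes of chromosomes 1 to 22 and X, and it used no measured value. The 37 genes span 4.46 Mb, from ZNF101 (first base 19668796) to ZNF254 (last base 24129968), and 3 other protein-coding genes have their TSS within that span.

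The cells were SUM159, a mesenchymal cell line from a triple-negative breast cancer, transduced with the lentiviral vector pLV-KRAB, which expresses dCas9-KRAB, a Cas9 without nuclease activity fused to a KRAB repressor domain. The All gRNA group also carried 4 guide RNAs against the promoter of ZEB1, and the No gRNA group carried the same vector without a targeting guide, so dCas9-KRAB was present in every sample. Native ChIP-seq, in which nucleosomes are released by nuclease without cross-linking, gave 2 libraries per group and mark, 8 in all. The labels number the 2 replicates of each group as biological and do not say which step was repeated.

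KRAB zinc finger proteins bind DNA through arrays of C2H2 fingers and recruit TRIM28 (KAP1), which brings the H3K9 methyltransferase SETDB1, HP1 proteins and the NuRD complex. Most of their targets are transposable elements, and the genes that code for them sit in clusters, many on chromosome 19, that carry H3K9me3 themselves. ZNF91 represses SVA elements and ZNF93 represses LINE-1 elements. The mark on such genes is usually densest at the 3′ end, where a single exon codes for the fingers. dCas9-KRAB recruits the same TRIM28 pathway to the site that its guides define.

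The 37 genes do not overlap each other, 20 lie on the plus and 17 on the minus strand, and their bodies run from 14.7 to 162 kb (median 36.7 kb). In the canonical transcripts, a codon pattern for the C2H2 finger (2 cysteine codons, then 2 histidine codons, at the spacing of a C2H2 finger, read in frame) was found 533 times, from 5 in ZNF738 to 36 in ZNF208, with a median of 13. All 533 lay in the last coding exon, which held a median of 87.2% of the coding sequence. One repeat unit of 84 bases, the first in the last coding exon that another unit follows directly, is printed for 3 genes to show what that exon consists of. In ZNF714 and ZNF254 this exon was covered by H3K9me3 in full with All gRNA (2 of 2 libraries) and at 0% with No gRNA (0 of 2), and in ZNF91 it was covered in full in all 4. The hg38 sequences are written 5′ to 3′ along the gene, and capitals mark the cysteine and histidine codons.
ZNF714 (chr19:21117103-21117186, plus strand): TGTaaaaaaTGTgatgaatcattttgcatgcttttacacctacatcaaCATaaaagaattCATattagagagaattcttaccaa
ZNF254 (chr19:24126802-24126885, plus strand): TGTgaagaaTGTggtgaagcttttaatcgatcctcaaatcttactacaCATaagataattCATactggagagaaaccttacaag
ZNF91 (chr19:23362094-23362177, minus strand): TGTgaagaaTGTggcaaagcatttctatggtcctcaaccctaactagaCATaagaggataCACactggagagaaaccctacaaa
The units of ZNF254 and ZNF91 were identical at 66 of 84 bases, and those of ZNF714 and ZNF91 at 53 of 84. Despite this likeness, a median of 95.8% of the 61-base words in the last coding exons occurred once in hg38 (range 34.8% to 100%), as did 95.6% in the gene bodies (79.1% to 98.5%) and 93.8% in the intervals between the genes (81.0% to 97.4%).

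RefSeq promoters of the GRCh38.p14 assembly were matched by symbol for 29 of the 37 genes. The 8-base words most common in the 250 bases before their starts, searched on both strands, were CCAATCAG (reverse complement CTGATTGG) and TCCAATCA (reverse complement TGATTGGA), which overlap by 7 bases. Each was present in 29 of 29 member promoters. TCCAATCA was in 12.7% of the 189 promoters matched for other ZNF genes of chromosome 19 and in 1.77% of 15316 promoters of protein-coding genes. CCAATCAG was in 14.8% and 5.11% of the same promoters. Both words were picked from the member promoters, so their count there is a description. All matches of CCAATCAG were on the gene's strand, and 14 promoters held it at 2 places. The 250 bases are printed for 4 members with different marks, with CCAATCAG in capitals: ZNF708 and ZNF431 had H3K4me3 in more libraries than any other member, ZNF91 had H3K9me3 and no H3K4me3, and ZNF85 had neither.
ZNF708 (chr19:21329411-21329660, minus strand): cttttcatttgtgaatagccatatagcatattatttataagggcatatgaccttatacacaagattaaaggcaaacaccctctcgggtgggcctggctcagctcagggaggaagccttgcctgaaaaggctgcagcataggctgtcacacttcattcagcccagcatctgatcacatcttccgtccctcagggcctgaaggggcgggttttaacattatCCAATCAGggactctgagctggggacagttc
ZNF431 (chr19:21141790-21142039, plus strand): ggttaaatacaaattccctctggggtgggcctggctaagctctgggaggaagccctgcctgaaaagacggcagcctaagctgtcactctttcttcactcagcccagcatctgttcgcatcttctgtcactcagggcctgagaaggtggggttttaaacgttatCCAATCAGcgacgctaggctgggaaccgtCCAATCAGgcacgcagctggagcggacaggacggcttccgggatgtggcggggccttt
ZNF91 (chr19:23395472-23395721, minus strand): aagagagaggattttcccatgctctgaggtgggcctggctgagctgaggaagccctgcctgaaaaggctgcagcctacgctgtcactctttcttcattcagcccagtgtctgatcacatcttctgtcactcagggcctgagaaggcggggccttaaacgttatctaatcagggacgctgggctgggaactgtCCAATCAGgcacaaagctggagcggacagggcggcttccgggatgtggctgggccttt
ZNF85 (chr19:20923001-20923250, plus strand): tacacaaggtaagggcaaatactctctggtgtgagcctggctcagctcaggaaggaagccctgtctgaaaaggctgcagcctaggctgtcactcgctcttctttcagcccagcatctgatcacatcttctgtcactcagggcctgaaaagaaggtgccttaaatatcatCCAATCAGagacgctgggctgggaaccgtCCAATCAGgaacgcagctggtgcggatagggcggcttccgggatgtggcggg
The last match began 31 bases before the RefSeq start in ZNF708, 58 bases before it in ZNF431 and ZNF91, and 52 bases before it in ZNF85. Of the 25 members whose RefSeq start lies within 1 kb of the GENCODE start, 10 had H3K4me3 in at least 1 library and 15 had none, and the word was in all 25 promoters.

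The measure throughout is the share of bases covered by the authors' MACS2 broad peaks with q of 0.05 or less. Values are given in the order All gRNA replicates 1 and 2, then No gRNA replicates 1 and 2. Peak yield differed within groups: H3K9me3 peaks covered 197.8 and 188.1 Mb of the main chromosomes with All gRNA, against 97.6 and 238.1 Mb with No gRNA, so No gRNA replicate 1 had the least. The targeted gene, ZEB1, had H3K9me3 over 22.8% and 67.3% of the 20 kb around its TSS with All gRNA and no peak there with No gRNA. For H3K4me3, 2 of the 4 file names give the other condition than the label, those of the libraries labelled All gRNA replicate 2 and No gRNA replicate 1. At the ZEB1 promoter (TSS ± 1 kb) H3K4me3 covered 0% and 100% in the libraries labelled All gRNA, against 0% and 100% in the pair labelled No gRNA, so the targeted gene did not separate these labels. Under the conditions in the file names the same 4 values would be 0% and 0% with guides, against 100% and 100% without. The paper reports that H3K4me3 was almost wholly lost from this promoter in SUM159 cells with All gRNA. Of the 2 groupings, only that of the file names shows such a loss. Groups were taken from the labels, and the H3K4me3 comparison is also given without those 2 libraries. As a check of the cell type, H3K4me3 was present at 4, 2, 1 and 4 of 4 mesenchymal genes (VIM, CD44, AXL, SPARC). It was at 0 of 5 epithelial genes (CDH1, EPCAM, ESRP1, GRHL2, ESR1) and at 0 of 2 blood cell genes (PTPRC, CD3E) in every library. This check depends on the peak threshold. With all deposited peaks, 4 of 4 mesenchymal genes had a peak in every library. So had 4, 4, 3 and 4 of the 5 epithelial genes and 0, 1, 1 and 0 of the 2 blood cell genes.

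H3K9me3 covered most of the cluster in both groups, in many separate domains. Peaks covered 77.0% and 79.3% of the span from the first to the last member with All gRNA, against 60.4% and 73.2% with No gRNA. The mean covered share of the 37 gene bodies was 77.6% and 79.8% with All gRNA, against 53.5% and 70.1% with No gRNA. Over all protein-coding genes the means were 1.22% to 3.52%. A peak lay on 35, 35, 32 and 36 of the 37 bodies, on 32 of them in all 4 libraries, and 22 bodies were covered by at least 50% in all 4. The 212 other ZNF genes of chromosome 19 had mean shares of 70.3%, 69.7%, 36.5% and 64.5%. H3K9me3 peaks on members were wide, with a median width of 15767, 15182, 10728.5 and 5852.5 bases against 2763, 2874, 1719 and 2027 bases over all peaks of the same libraries, and their median fold enrichment was between 2.20 and 2.34.

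Coverage was not even along the cluster. The 5 members with the highest mean body share over the 4 libraries were ZNF14 (98.6% ± 2.73), ZNF93 (97.1%), ZNF737 (95.3%), ZNF724 (94.8%) and ZNF486 (93.8%). ZNF93, the LINE-1 repressor, had 100%, 97.8%, 94.8% and 96.0% of its body covered. The 5 lowest were ZNF85, ZNF100, ZNF676, ZNF66 and ZNF714. ZNF85 had 0% in every library, and ZNF100 had 0%, 0%, 0% and 2.82%. ZNF676 had 13.1%, 4.50%, 0% and 3.79%, ZNF66 had 17.0%, 16.1%, 0% and 24.6%, and ZNF714 had 48.8%, 29.01%, 6.88% and 8.51%. These low genes were covered in few libraries or in small part, while 13 members had an SD over the 4 libraries of under 5 points.

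Of the 7 members with a mean body share under 50%, 4 lay side by side: ZNF66, ZNF85, ZNF430 and ZNF714, the 11th to 14th genes of the order. The other 3 were ZNF100, ZNF676 and ZNF254, at places 20, 24 and 37. Intervals beside the 4 neighbours were mostly low as well. The interval between ZNF626 and ZNF66 was covered by 11.8%, 9.90%, 0.695% and 14.7%, and that between ZNF85 and ZNF430 by 1.60%, 3.34%, 0% and 0.412%. The interval between ZNF714 and ZNF431 was at 0% in 3 libraries and at 91.1% in All gRNA replicate 2. ZNF626, just before the stretch, had 94.5%, 86.6%, 70.7% and 92.1% of its body covered. ZNF431, just after it, had 42.8%, 94.3%, 15.1% and 72.5%, so on that side the return of the mark differed between libraries. Also low were the interval between ZNF100 and ZNF43, with 2.59%, 3.16%, 0% and 1.81%, and the interval between ZNF676 and ZNF729, with 0.487%, 0%, 0% and 0%. Over the 37 genes the mean body share had a Spearman correlation of -0.07 with body length, -0.02 with the number of fingers and -0.30 with the share of unique 61-base words. These are across genes of the same 4 libraries and are descriptions.

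**Figure D1:**
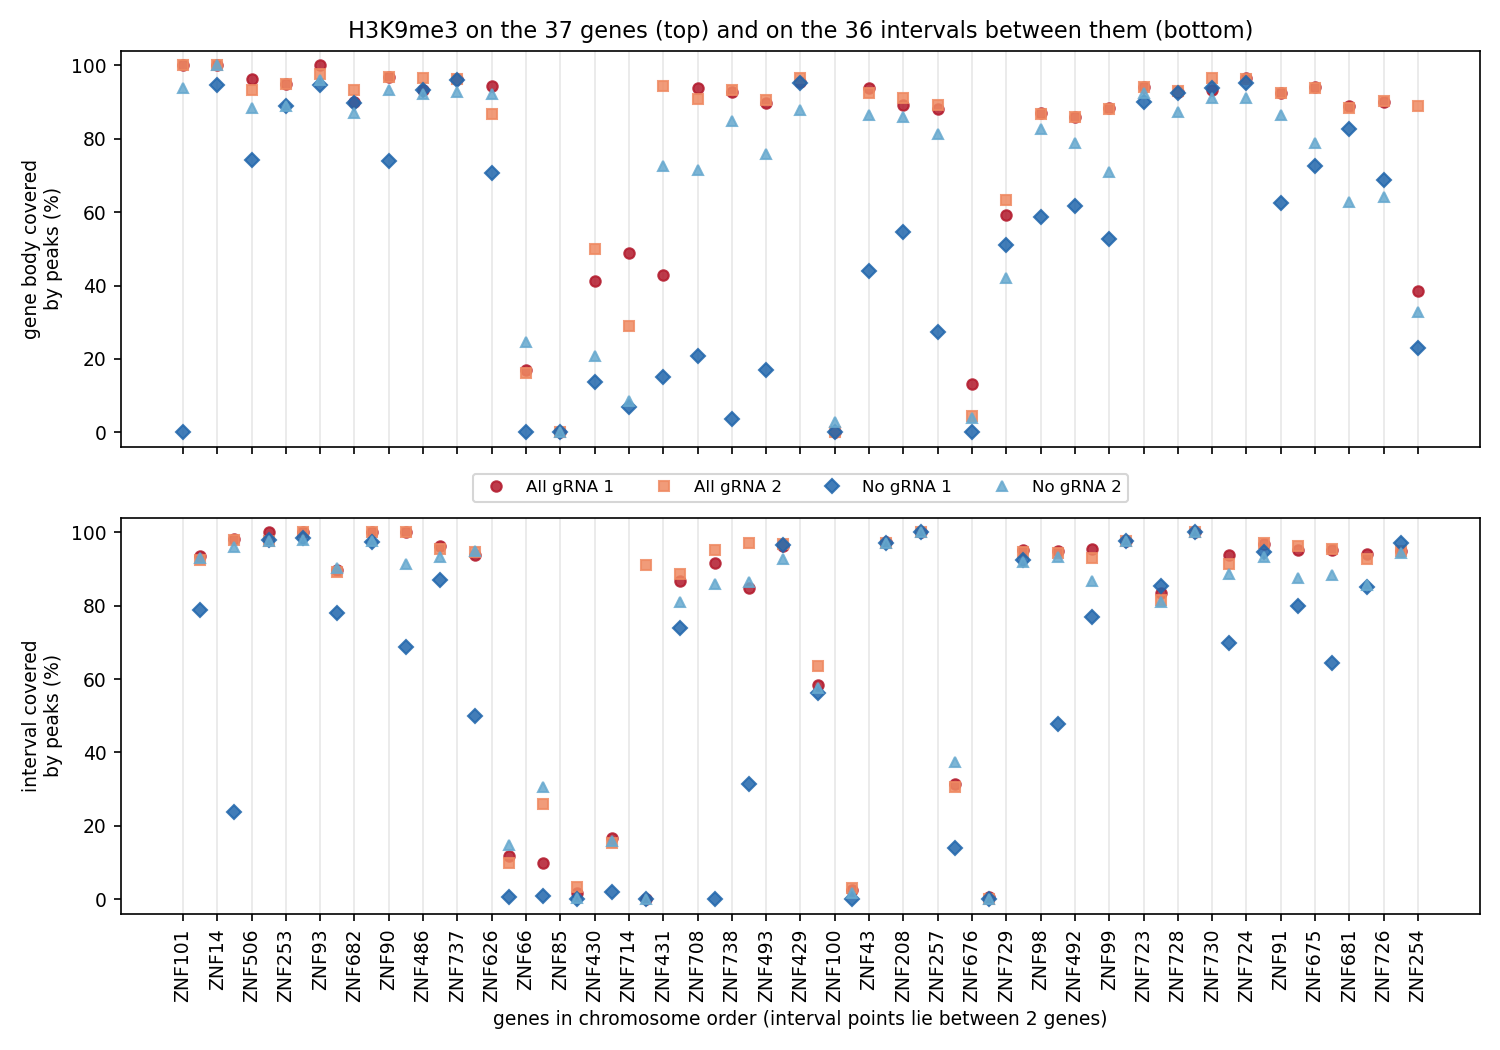
Share of each gene body (top) and of each interval between neighbouring genes (bottom) covered by H3K9me3 peaks, in percent, with 1 point per library and genes in chromosome order. Bodies from ZNF66 to ZNF714 are under 50% in all 4 libraries, and ZNF85 is at 0% in every one.

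Coverage of the intervals was close to that of the genes. The 36 intervals between consecutive members (median 69.5 kb) had mean shares of 74.9% and 78.2% with All gRNA, against 59.6% and 73.4% with No gRNA. The mean of the gene bodies minus that of the intervals was 2.64 and 1.60 points with All gRNA, against -6.08 and -3.31 points with No gRNA, with a mean over the 4 libraries of -1.29 points. With peaks joined across gaps of up to 1 kb, the longest domain that touched a member was 128 kb and 145 kb long with All gRNA, against 108 kb and 94.6 kb with No gRNA, and no domain touched more than 2 members. The 145 kb domain held parts of ZNF728 and ZNF730. Within the span, the covered bases shared by a pair of libraries, divided by those covered in either, were 0.927 within All gRNA, 0.772 within No gRNA and between 0.745 and 0.899 across the groups.

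Gene bodies had more H3K9me3 in All gRNA in most members, by amounts smaller than the limit set for a call. A call required a gap of at least 25 points between the lower library of one group and the higher library of the other. By that rule 0 of 37 members were called higher and 0 lower, against 0.16% and 0.01% of all protein-coding genes. With every library trimmed to the same covered length, 4 members were called higher and 0 lower, against 61 and 10 of 19970 genes. Such calls were not particular to the cluster. Among the 212 other ZNF genes of chromosome 19, 10 were called higher and 0 lower in the main setting. At equal covered length 32 of these were called higher and 1 lower. By the weaker rule that both All gRNA libraries lie above both No gRNA libraries by any amount, which was added after the values were seen, 30 of 37 members (81.1%) were higher and 0 lower. Over all protein-coding genes, most of which have no peak, 2.59% were higher and 1.58% lower by that rule. Among the other ZNF genes of chromosome 19 it was met by 41.5%, and among the 36 intervals by 19 (52.8%), with 0 intervals lower. The median difference over members was 14.6 points, against 0 over all genes, 10.8 over the other ZNF genes of chromosome 19 and 4.63 over the intervals.

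The difference depends on No gRNA replicate 1, which had the fewest covered bases and the lowest share in 25 of 37 bodies. Without it the median difference was 6.03 points, and 31 members were higher and 2 lower by the rule of no overlap, against 2.83% and 12.6% of all genes. Leaving out a library can only keep or add cases of no overlap, so the count of higher members could not fall below 30. No gRNA replicate 2 covered more of the genome than either All gRNA library, and it had less of the members covered on average. When every library was trimmed to the same covered length, starting from its strongest peaks, 24 members did not overlap and were higher and 0 were lower, against 1.28% and 1.07% of all genes. With all deposited peaks these counts were 31 and 0, against 10.8% and 24.5% of all genes. Peaks on members had a median −log10 q of 1.56 to 2.37, so at q of 0.001 or less the shares were mostly 0, and by the weaker rule 1 member, ZNF681, which was among the 30 as well, was higher and 0 were lower, against 0.0601% and 0.0651% of all genes. Yield and mark cannot be told apart from peak lists alone.

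The largest difference was at ZNF101, the first gene of the cluster, with 100% and 100% of its body covered with All gRNA, against 0% and 93.8% with No gRNA. Its groups did not overlap, but the No gRNA libraries lay far apart. ZNF738 had 92.6% and 93.4% against 3.62% and 84.8%, and ZNF708 had 93.8% and 90.7% against 20.7% and 71.5%. In both, the second No gRNA library lay much nearer to the All gRNA values than the first. ZNF91, the SVA repressor, had 92.6% and 92.5% with All gRNA, against 62.5% and 86.5% with No gRNA, a difference of 18.05 points (92.5% ± 0.0867 against 74.5% ± 17.0, SD, n = 2 each, exact permutation p = 0.33, two-sided). No comparison of 2 against 2 libraries can give a smaller p than this.

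Of the other 9 members listed by name for their better-known products, 8 were higher in All gRNA with no overlap, ZNF93 and ZNF676 above among them, and ZNF85 was at 0% in all 4 libraries. ZNF43 had 93.8% and 92.5% against 44.1% and 86.4%, and ZNF208 had 89.3% and 91.1% against 54.5% and 85.8%. ZNF257 had 88.2% and 89.1% against 27.4% and 81.2%. ZNF675, whose product interacts with TRAF6, had 94.2% and 93.8% against 72.6% and 79.0%, so its No gRNA libraries were close to each other and below both All gRNA libraries. ZNF90 had 96.9% and 96.9% against 73.9% and 93.3%, and ZNF254, the last gene of the cluster, had 38.4% and 89.0% against 23.01% and 32.8%. The same absence of overlap was seen in 81.1% of members and 2.59% of all genes, and in each of the 8 the gap was under 25 points.

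**Figure D2:**
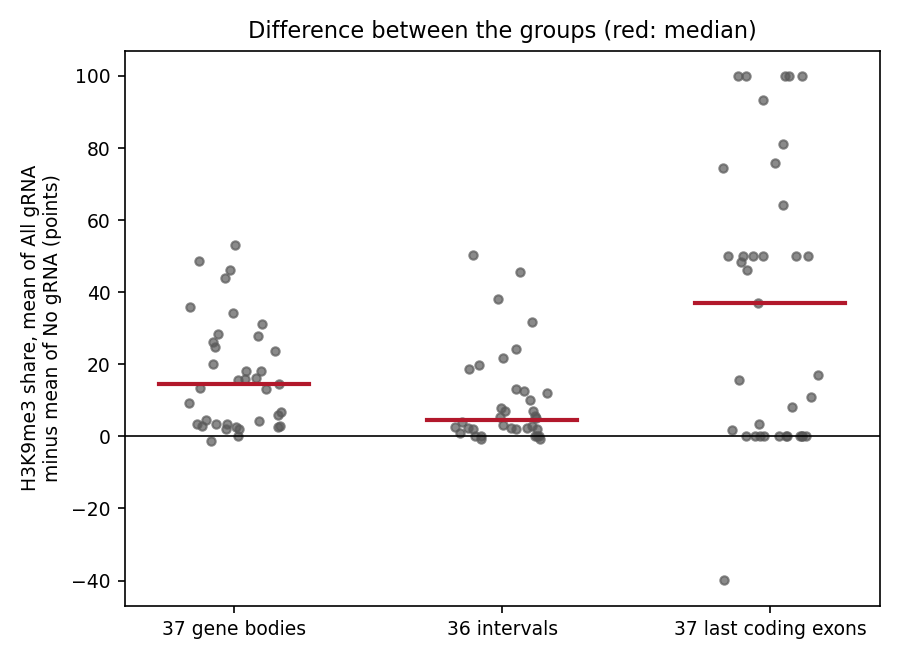
Difference in H3K9me3 share, mean of All gRNA minus mean of No gRNA in percentage points, with 1 point per gene body, interval or last coding exon and the median as a red line. The medians are 14.6 for bodies, 4.63 for intervals and 36.9 for last coding exons, and 1 exon, that of ZNF506, lies at -40.0. Exons are much shorter than bodies, so their shares move in larger steps.

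Around the start sites the median difference was smaller than along the bodies at q of 0.05 or less, but not at q of 0.01 or less, where it was 47.5 points against 41.0. H3K9me3 covered on average 74.4% and 79.0% of the TSS ± 10 kb with All gRNA, against 57.1% and 72.3% with No gRNA, with a median difference of 2.22 points. ZNF101 was the 1 member called higher by the 25-point gap, and 0 were called lower, against 0.225% and 0.00501% of all genes. Its TSS ± 10 kb was covered by 71.9% and 73.4% with All gRNA, against 0% and 45.4% with No gRNA (72.6% ± 1.05 against 22.7% ± 32.1, SD, n = 2 each, exact two-sided permutation p = 0.33). The difference was 49.9 points, and the gap between the groups was 26.5 points. ZNF101 was picked by that gap, so neither value is a test of it. By the rule of no overlap, 11 members (29.7%) were higher and 0 lower, against 1.65% and 0.541% of all genes. Among the 212 other ZNF genes of chromosome 19 the shares were close to this, 28.3% higher and 2.36% lower. By the 25-point gap 12 of these 212 were called higher and 0 lower. Many starts were covered in full whatever the group: ZNF43 and ZNF257 had 100% in all 4 libraries, and ZNF91 had between 91.8% and 93.4%.

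The 3′ exon that codes for the fingers was measured by itself, which was added after the values were seen. The mean H3K9me3 share of the last coding exon was 87.1% and 87.8% with All gRNA, against 45.8% and 56.8% with No gRNA, and 24 exons were covered in full in both libraries of All gRNA, against 10 in both of No gRNA. By the 25-point gap, 10 members were higher and 0 lower, against 0.2% and 0.0451% of all genes. By the rule of no overlap, 11 were higher and 0 lower, against 0.28% and 0.0551%. These exons are short, 1671 bases on average against a median body of 36.7 kb, so 1 peak can move an exon from 0% to 100%. The median difference was 36.9 points over members, above the 14.6 of the bodies, but with all deposited peaks it was 3.45 against 5.12. Over the other ZNF genes of chromosome 19 the median was 0 and the mean 19.8 points, with 93 of 212 above 0 and 6 below, and 9 were called higher and 1 lower. At equal covered length 23 of these 212 were called higher, against 6 of 37 members, so higher finger exons in All gRNA were not limited to the cluster.

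The 10 called genes were ZNF714, ZNF431, ZNF493, ZNF43, ZNF257, ZNF729, ZNF99, ZNF730, ZNF675 and ZNF254. In 5 of them, ZNF714, ZNF431, ZNF493, ZNF99 and ZNF254, the exon had 100% and 100% against 0% and 0%. In ZNF43 it was covered by 88.9% and 60.1% against 0% and 0%, and in ZNF257 by 86.9% and 100% against 0% and 0%. ZNF675 had 100% and 100% against 48.2% and 0%. The exon shares of these 10 genes could not overlap between the groups, because the gap in that exon picked them. Their body shares did not overlap in 8 of the 10. In 6 of the 10 the TSS ± 1 kb had the same H3K9me3 share in all 4 libraries, and in 4 of those that share was 100%. At ZNF675 and ZNF254 the start site was also higher in All gRNA, with 100% and 100% against 0% and 60.5% at the first and 27.4% and 100% against 18.1% and 0% at the second.

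Other finger exons had the same share in both groups. In ZNF14, ZNF253, ZNF682, ZNF486, ZNF737, ZNF723, ZNF728, ZNF724 and ZNF91 the exon was covered in full in all 4 libraries. In ZNF85 and ZNF100 it was at 0% in all 4. ZNF506 went the other way, with 100% and 20.1% with All gRNA, against 100% and 100% with No gRNA. The called exons held a median of 12.5 fingers and 96.6% unique 61-base words, and the others 13 fingers and 95.8%. Without No gRNA replicate 2, 17 exons were called higher and 0 lower, against 1.44% and 0.1% of all genes. Leaving out a library can only keep or add calls. With all deposited peaks 7 exons were higher and 0 lower, against 1.26% and 1.17%. With all libraries trimmed to the same covered length 6 and 0 were, against 0.255% and 0.0751%.

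Along the scaled gene bodies, the mean share over members was highest near the 3′ end in the All gRNA libraries and not in the No gRNA libraries. The 18th of 20 body bins was picked because both All gRNA libraries were highest there, so the contrast in it is a description. In that bin the mean share was 89.1% and 88.4% with All gRNA, against 52.5% and 68.6% with No gRNA. In the first bin it was 75.7% and 81.1% against 54.1% and 71.9%. The mean share of the last coding exon minus that of the TSS ± 1 kb was 10.7 and 6.72 points with All gRNA, against -8.77 and -13.5 points with No gRNA, positive in both All gRNA libraries and negative in both No gRNA libraries. With all deposited peaks this difference was 2.43 and -2.91 points with All gRNA, against -2.29 and -15.7 with No gRNA, and the signs no longer followed the groups. With libraries trimmed to the same covered length it was 7.61 and -3.60 against -8.77 and -13.6.

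**Figure D3:**
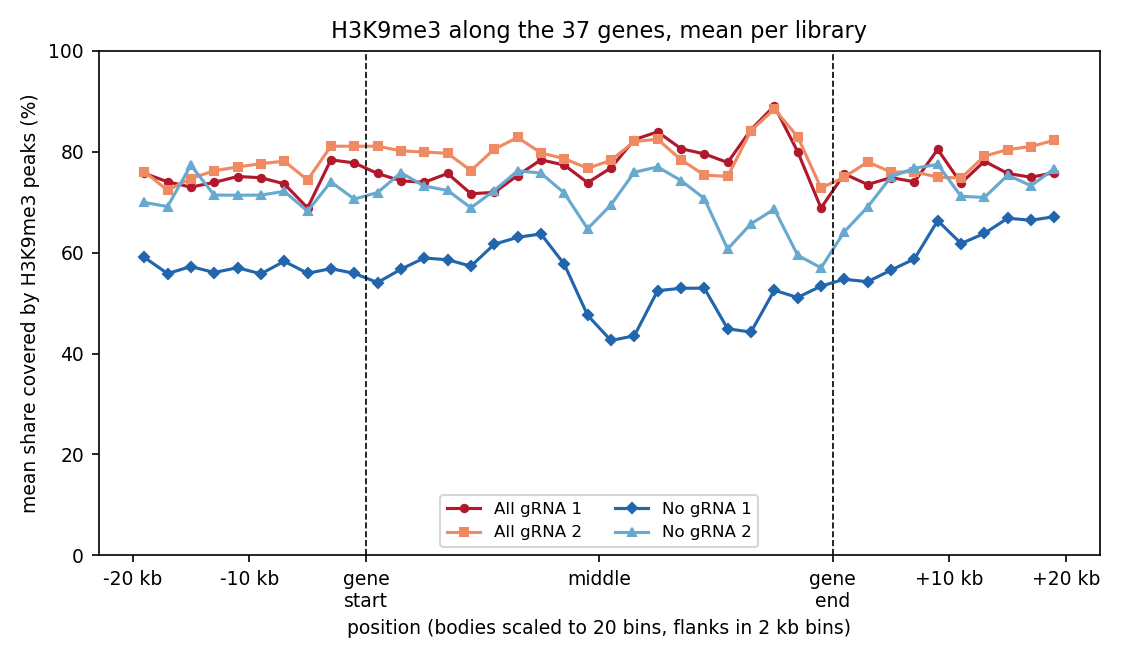
Mean share covered by H3K9me3 peaks along the 37 genes, in percent, with bodies scaled to 20 bins, 20 kb of flank on each side in 2 kb bins and 1 line per library. The lines of All gRNA peak at 89.1% and 88.4% near the 3′ end, where those of No gRNA are at 52.5% and 68.6%. That bin was picked for the peak of the All gRNA lines.

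H3K4me3 was found at fewer of these promoters than over all genes. A peak reached the TSS ± 1 kb of 6 and 2 members in the libraries labelled All gRNA, against 0 and 12 in the pair labelled No gRNA. H3K4me3 peaks covered 54.6 and 19.3 Mb of the main chromosomes in the first pair, against 46.0 and 114.6 Mb in the second. The library labelled No gRNA replicate 1 thus covered more bases than that labelled All gRNA replicate 2, but reached fewer members. In total 13 of 37 members (35.1%) had H3K4me3 in at least 1 library, 24 had none, and no member had it in all 4. Over all protein-coding genes 54.8% had a peak at the TSS in at least 1 library, and over the other ZNF genes of chromosome 19 it was 68.4%. The counts depend on the peak threshold: with all deposited peaks, 32 members (86.5%) had a peak in at least 1 library and 15 (40.5%) in all 4, against 96.6% and 72.3% of all genes. By the 25-point gap 0 members were called higher and 0 lower, against 0.135% and 1.62% of all genes. Without the 2 libraries whose file names give the other condition, which leaves 1 against 1 and no replicate, 3 members were at least 25 points higher in the library labelled All gRNA and 7 at least 25 points lower, against 1.9% and 22.1% of all genes.

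ZNF708 and ZNF431 had the mark in 3 libraries each. The TSS ± 1 kb of ZNF708 was covered by 100% and 100% in the libraries labelled All gRNA, against 0% and 97.4% in the pair labelled No gRNA, and that of ZNF431 by 100% and 67.2% against 0% and 63.5%. ZNF14 had 100% and 0% against 0% and 100%, ZNF675 had 100% and 0% against 0% and 60.2%, and ZNF254 had 100% and 0% against 0% and 87.2%. In all 5 genes this window was at 0% in the library labelled No gRNA replicate 1, as it was for every member. The windows lie at GENCODE starts. The RefSeq starts of ZNF254, ZNF730, ZNF43 and ZNF429 lay 53782, 41815, 15943 and 8920 bases from these. In the body of ZNF254, the library labelled No gRNA replicate 1 had a peak from 24087191 to 24087943, beside the RefSeq start at 24087187. This peak overlapped a peak of the library labelled No gRNA replicate 2. Between the midpoint and the 3′ end of this body, H3K4me3 covered 0% and 0% in the libraries labelled All gRNA. It covered 1.56% and 2.69% there in the pair labelled No gRNA. Under the conditions in the file names these values would be 0% and 1.56% with guides, against 0% and 2.69% without. The bodies of ZNF730, ZNF43 and ZNF429 held no H3K4me3 peak in any library. Another 7 members had the mark in the library labelled No gRNA replicate 2 only, and ZNF66 had it in the library labelled All gRNA replicate 1 only, over 25.9%. The order of the libraries was the same over all genes, with mean shares of 31.3%, 10.8%, 8.82% and 50.5%.

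Both marks were found on the same genes. All 13 members with H3K4me3 had H3K9me3 on the body in at least 1 library, 9 had it within 1 kb of the TSS in at least 1 library, and 3 had at least 50% of the body covered in all 4. At ZNF708 the H3K9me3 share of the TSS ± 1 kb was 100%, 100%, 0% and 50.02%, and at ZNF506 it was 100% in all 4. At ZNF66, ZNF430, ZNF714 and ZNF100 no H3K9me3 peak reached that window in any library. The median over genes of the mean H3K9me3 share there was 51.1% for the 13 genes with H3K4me3 and 100% for the 24 without, and it was covered in full in all 4 libraries in 1 of the 13 and in 17 of the 24. Peaks of the 2 marks come from separate libraries, so whether they lie on the same nucleosomes, alleles or cells was not tested.

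**Figure D4:**
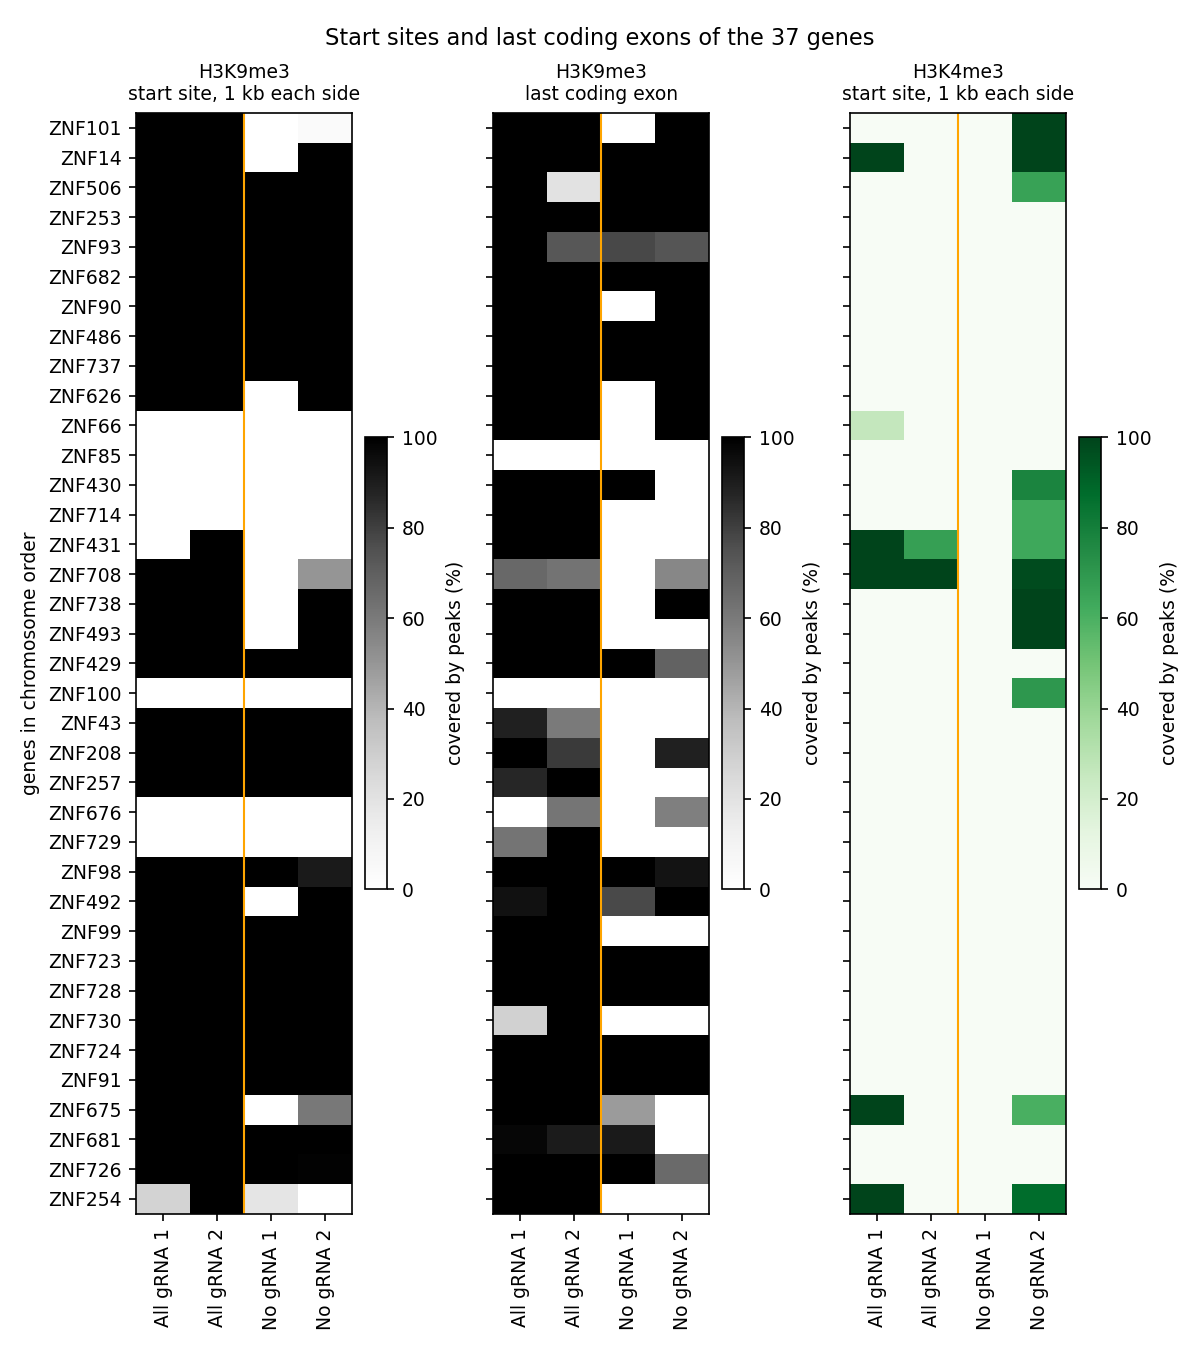
Share of the TSS ± 1 kb and of the last coding exon covered by H3K9me3 peaks (grey) and of the TSS ± 1 kb covered by H3K4me3 peaks (green), in percent, with a row per gene in chromosome order, a column per library as labelled and an orange line between All gRNA and No gRNA. In 5 genes the last coding exon is dark in both columns of All gRNA and white in both of No gRNA, and H3K4me3 is absent from the column of No gRNA replicate 1.

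Just outside the window, ZNF333 (TSS at 14689801) had 55.8%, 47.3%, 0% and 37.4% of its body covered by H3K9me3, and its TSS ± 1 kb was covered by H3K4me3 at 100%, 92.3%, 0% and 100%. ZNF536 (TSS at 30224891) had 91.9%, 94.8%, 42.2% and 96.4% of its body covered by H3K9me3 and no H3K4me3. Both had their lowest H3K9me3 share in No gRNA replicate 1, like most members.

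The genes of the pathway that KRAB zinc finger proteins act through were different. They were TRIM28, SETDB1, ATF7IP, CBX1, CBX3, CBX5, CHD4, MORC2, TASOR, MPHOSPH8 and PPHLN1. H3K9me3 covered at most 6.45% of any of these 11 bodies, the highest share being that of ATF7IP in No gRNA replicate 2. By the 25-point gap 0 of 11 were called for either mark. H3K4me3 was at 7 and 2 of their promoters in the libraries labelled All gRNA, against 1 and 10 in the pair labelled No gRNA, and at TRIM28 the shares were 100% and 0% against 0% and 100%.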

How the data were processed

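Native ChIP-seq of H3K9me3 and H3K4me3 was analysed in SUM159 cells, 2 libraries per group and mark. Per the methods of the study, the authors trimmed reads with fastp, aligned them to hg38 with bowtie2, removed excluded regions and duplicates, and called broad peaks with MACS2 in each library. The submitters' processing notes instead name Bowtie 1.1.2, Trimmomatic 0.33, bcl2fastq 2.17 and MACS2 2.1.0, and which set made the files is not settled here. Whether input was the MACS2 control is not given in the sources used here. Deposited with each peak are a score, a fold enrichment ratio, and a p-value and a q-value as −log10. The q-value filtered and ranked the peaks here, and the fold described them. Peak lists hold no counts, so depth is unknown and no interval could be given.

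Peaks of q ≤ 0.05 on chromosomes 1 to 22 and X were merged, and covered shares were computed for all 19970 genes with python 3.11.15, numpy 2.4.6 and pandas 2.3.3, on code tested on simulated data. Last coding exons were those of canonical transcripts. With 6 labellings of 2 of 4 libraries the smallest exact p is 0.33. Genes named were those called (at most 10 per measure and direction), the 5 highest and 5 lowest body shares, 10 genes listed by name, the first and last members, the nearest ZNF genes outside the window, ZEB1 and the pathway list. Others were named after their values were seen. The members and lists were chosen with earlier results of these data known.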

Additional observations from a re-analysis of the deposited data

How the results depend on the processing

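Of 162 values recomputed under other settings, 122 stayed within the limits set for a change. The limits did not look for a change of sign. Bodies minus intervals was -1.29 points in the main setting and 0.309 without No gRNA replicate 1. Last coding exon minus start site was -1.22 points in the main setting and 2.47 at q ≤ 0.001. It was 1.30 and 2.89 without No gRNA replicates 1 and 2. Both differences stayed negative in the other settings. In the gene bodies, members called higher numbered 1 at q ≤ 0.01 and 4 at equal covered length instead of 0. The median difference was 41.0 points at q ≤ 0.01 and 0 at q ≤ 0.001, and the members that did not overlap and were higher numbered 19 and 1. Around the TSS, members called higher numbered 2 at q ≤ 0.01, 0 at q ≤ 0.001, 3 at equal covered length, 0 with ± 25 kb and 0 with a gap of 50 points, and the median difference was 47.5 points at q ≤ 0.01 and 7.501 points with ± 25 kb. For H3K4me3, leaving out the 2 libraries with conflicting names gave 3 higher and 7 lower, and the canonical start gave 1 lower. Last coding exons called higher numbered 0 at q ≤ 0.001 and 6 at equal covered length. Bodies minus intervals was -4.08 points with all deposited peaks and -3.45 at equal covered length, and last coding exon minus start site was -4.62 with all deposited peaks, 2.47 at q ≤ 0.001 and -4.60 at equal covered length. At equal covered length 61 of 19970 starts were called higher over all genes, 32 of them among the 212 other ZNF genes of chromosome 19. Calls at stricter q, with ± 25 kb and with a gap of 50 points were not counted over all genes. The cause of these moves was not tested, except that stricter q leaves fewer peaks.

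Leaving out each library in turn gave 1 to 12 gene bodies called higher, with 12 without No gRNA replicate 2, and 0 to 2 that did not overlap and were lower. It gave 1 to 8 starts called higher, 8 without No gRNA replicate 2. For H3K4me3 it gave 0 to 3 higher and 0 to 7 lower, 7 without the library labelled No gRNA replicate 1. Last coding exons gave 10 to 17 higher and 0 to 1 lower. Leaving out a library can only keep or add calls and cases of no overlap, so these counts could not fall below those of the full set. The same holds for all genes, where last coding exons called higher went from 0.2% to 1.44% without No gRNA replicate 2. Calls for gene bodies, starts and H3K4me3 were not counted over all genes in these settings, so whether the members stand out is unknown. Bodies minus intervals ranged from -2.60 to 0.309 points, and last coding exon minus start site from -5.20 to 2.89.

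The replicate numbers are shared in the labels, but nothing says that a number marks a shared batch, and with 2 pairs the pairing was not taken as given. With the replicate block, 1 gene body was called higher, and no other count of calls moved by over 1.5 times. Deviations of same-numbered H3K4me3 libraries correlated at -0.427 over members, and with crossed pairing 1 member was called higher and 0 lower.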
